A study of Mus musculus with 6 samples.

Results

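The pore-forming alpha1 subunits of voltage-gated calcium channels were followed in the motor cortex of SOD1G93A mice, 1 gene row for each of 8 genes out of 33182 in the deposited table. The rows were those whose gene name was Cacna1a, Cacna1b, Cacna1c, Cacna1d, Cacna1e, Cacna1g, Cacna1h or Cacna1i. All 8 passed the filter on low values, which left 15740 genes for testing. The SOD1G93A mouse carries a mutant human SOD1 transgene and is a model of amyotrophic lateral sclerosis. Both groups had this genotype and were sampled at day 120. One group of 3 libraries was labelled as control and the other group of 3 as ultrasound treatment, which the series title calls low-intensity pulsed ultrasound. The labels do not say whether controls were sham-treated, nor give the sex of the mice or the ultrasound settings. They also do not state that each library is a separate animal, so p-values refer to the spread among libraries, which may be technical.

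Voltage-gated calcium channels open when the membrane is depolarized and turn electrical activity into calcium entry. Each channel is built around 1 alpha1 subunit, a protein with repeated membrane domains that forms the pore and senses voltage, and the alpha1 gene sets the current type. The L-type channels Cacna1c and Cacna1d lie mostly on cell bodies and dendrites and link activity to gene transcription. The Cav2 channels Cacna1a (P/Q-type), Cacna1b (N-type) and Cacna1e (R-type) supply the calcium that triggers transmitter release. The T-type channels Cacna1g, Cacna1h and Cacna1i open at low voltage and support burst firing. In cortex, these channels shape dendritic excitability and transmission of projection neurons and interneurons.

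None of the 8 pore subunit genes passed the threshold between ultrasound and control libraries. On TMM-scaled CPM, 1 of 8 was higher without overlap between groups, Cacna1b, and 1 lower, Cacna1g. Of all tested genes, 11.3% did not overlap in either direction on that scale, and on FPKM Cacna1g overlapped. Cacna1e and Cacna1h differed more between libraries of the same group than any other member. In edgeR, 0 of 8 had an adjusted p under 0.05, where 0.00635% of all tested genes did. At an unadjusted p under 0.05 the count was 1 of 8 in edgeR, Cacna1g, against 4.77% of all tested genes, so this share is that of a single gene. DESeq2 and limma on log2(FPKM + 0.5) likewise gave 0 of 8, both at an adjusted and at an unadjusted p under 0.05, and DESeq2 passed 0.184% of all tested genes. The median log2 fold change, ultrasound minus control, was 0.05 over the 8 members and -0.01 over all tested genes, with 4 members higher and 4 lower. Single libraries moved this: without control 3 the split was 6 higher and 2 lower with a median of 0.15, without control 1 the median was 0.11, and it was 0.0006 without control 2, 0.028 without ultrasound 1 and 0.026 without ultrasound 3. In these bulk libraries, fewer cells of a type and less RNA per cell cannot be told apart.

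Total counts per library ranged from 38202541 to 60088636, and the 18S ribosomal RNA gene took 0.561% to 9.18% of them, most in ultrasound 2 and control 3. The members had 2073 to 17786 counts per library, which gives a counting error between 2.20% and 0.750% of the count. This error covers the sampling of reads only. Excitatory cortical neuron markers were present in every library, with Slc17a7, the vesicular glutamate transporter of cortical neurons, at 162 to 247 FPKM. Control 3 stood apart in its olfactory bulb markers, whose summed level over 5 of 5 genes was 62.0 FPKM against 1.37 to 3.13 FPKM in the other 5 libraries. Striatal markers summed over 10 of 10 genes also varied, from 137 FPKM in control 2 to 581 FPKM in control 3 and 557 FPKM in ultrasound 3.

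**Figure D1:**
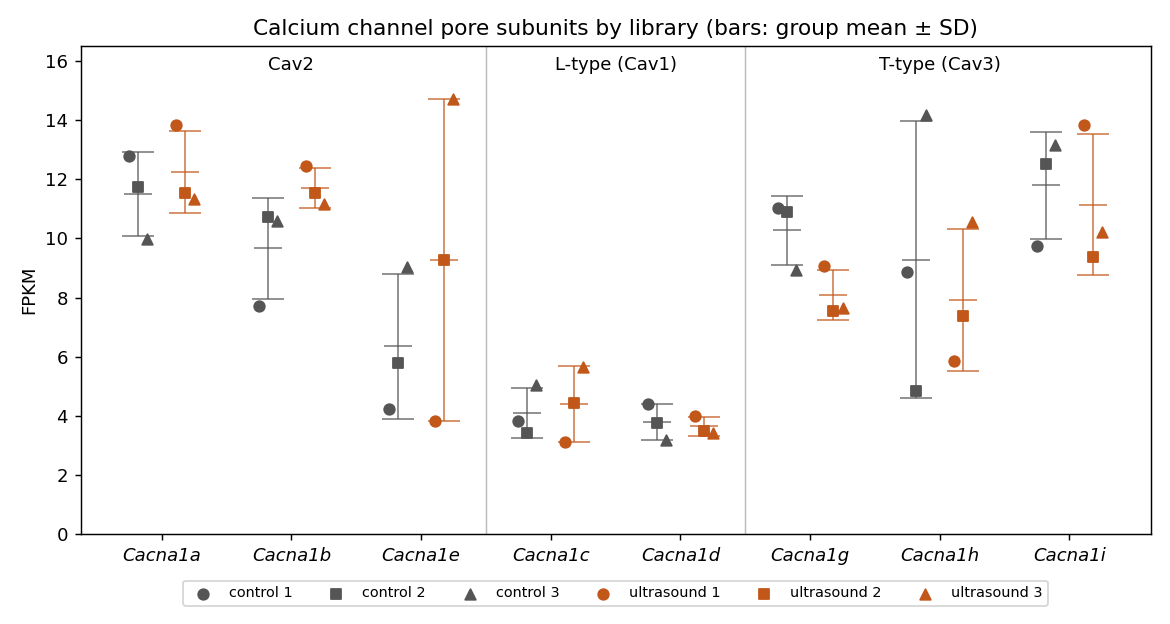
FPKM (fragments per kilobase of transcript, scaled to depth) of each pore subunit gene in the 3 control libraries (grey) and 3 ultrasound libraries (orange), with the group mean and SD as bars. Cacna1b is the only member whose FPKM values do not overlap between groups, and Cacna1e and Cacna1h have the widest spread within groups.

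Ordered by mean FPKM over the 6 libraries, the P/Q-type gene Cacna1a stood first at 11.9 ± 1.31 FPKM (SD, n = 6). It was followed by the T-type gene Cacna1i at 11.5 ± 1.92, the N-type gene Cacna1b at 10.7 ± 1.61 and the T-type gene Cacna1g at 9.19 ± 1.51 FPKM. The third T-type gene, Cacna1h, averaged 8.603 ± 3.40 and the R-type gene Cacna1e 7.82 ± 4.10 FPKM. The L-type genes were lowest, with Cacna1c at 4.25 ± 0.982 and Cacna1d at 3.72 ± 0.442 FPKM. Of the 7 neighbouring pairs in this order, only Cacna1e over Cacna1c held in 6 of 6 libraries, and the other pairs held in 3 or 4 libraries, so their order is within the spread. FPKM depends on the transcript length assigned to a gene. The length implied by counts over FPKM, with summed counts as depth, was 28366 bases for Cacna1e and 24595 for Cacna1c. Their longest coding transcripts in GENCODE M21 have 14921 and 13162 bases. For Cacna1i the implied length was closer, at 11088 against 9781 bases. FPKM levels and shares of different members thus rest on unlike lengths. With counts per kilobase of the longest coding transcript in GENCODE M21, which was chosen after the data were seen, Cacna1a stayed first and Cacna1c and Cacna1d last, while Cacna1e moved from rank 6 to rank 2.

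The same family holds 2 further alpha1 genes that are known from muscle and retina. Cacna1s, the skeletal muscle L-type subunit, had 0.0841 to 0.565 FPKM, and Cacna1f, the photoreceptor L-type subunit, 0.00866 to 0.0723 FPKM. Both fell below the filter minimum of a mean of 0.5 FPKM, and neither was tested. Nalcn, the sodium leak channel related to this family, had control levels of 5.94 ± 0.242 FPKM and ultrasound levels of 6.65 ± 0.603 FPKM (SD, n = 3 each) and a fitted log2 fold change of 0.20 (SE 0.12, edgeR adjusted p = 0.973).

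Start regions of the N-type gene Cacna1b and the R-type gene Cacna1e are shown because Cacna1b is the member whose FPKM values did not overlap between groups and Cacna1e, of the same subfamily, the most variable. The sequences are RefSeq windows from 250 bases before to 50 bases after an annotated start, on GRCm38.p6, on the minus strand of chromosome 2 (chr2:24763103-24763402) and of chromosome 1 (chr1:154725871-154726170). Capitals mark GC boxes, the letters GGGCGG on either strand, overlaps included.
Cacna1b: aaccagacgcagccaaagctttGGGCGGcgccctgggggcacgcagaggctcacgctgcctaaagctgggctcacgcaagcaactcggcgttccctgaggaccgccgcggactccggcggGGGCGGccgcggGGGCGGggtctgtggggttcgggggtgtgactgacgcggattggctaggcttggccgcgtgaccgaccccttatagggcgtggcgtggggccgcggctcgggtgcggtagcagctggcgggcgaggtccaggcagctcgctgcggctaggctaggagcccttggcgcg
Cacna1e: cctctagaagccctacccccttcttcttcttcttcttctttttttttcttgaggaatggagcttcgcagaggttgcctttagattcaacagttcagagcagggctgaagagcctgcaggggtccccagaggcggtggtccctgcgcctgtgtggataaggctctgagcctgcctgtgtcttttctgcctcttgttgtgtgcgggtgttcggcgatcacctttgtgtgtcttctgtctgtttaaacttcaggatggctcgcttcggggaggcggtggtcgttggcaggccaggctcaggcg
The Cacna1b window held 3 GC boxes and 35 CpG dinucleotides, with a GC content of 72.3%. The Cacna1e window held 0 GC boxes and 11 CpG dinucleotides, with a GC content of 55.3%. Over the 32851 annotated start windows of the same length, 35.7% held a GC box, and the medians were 7 CpG dinucleotides and a GC content of 52.7%. RefSeq windows were found for 5 of the 8 members, and a letter match is a description and not a binding site. In the Cacna1e window the letters atg follow almost directly after the annotated start. Whether transcription begins at these starts in motor cortex was not tested, so neither window is shown to be a promoter.

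Among the Cav2 genes, Cacna1b had higher levels in every ultrasound library than in every control. Cacna1b (ENSMUSG00000004113, chromosome 2, 24493899 to 24653164, minus strand) encodes the N-type channel of presynaptic terminals. Its position and those of the other members are given as the deposited table lists them, and their genome build is uncertain. It was at 7.70, 10.7 and 10.6 FPKM over controls 1 to 3, against 12.4, 11.5 and 11.1 FPKM over ultrasound 1 to 3. Control 1 lay well below the other 5 libraries, and the gap between control 2 and ultrasound 3 was small. The log2 fold change was 0.32 (SE 0.15), a 1.24-fold difference with a 95% interval of 0.974-fold to 1.59-fold, and the edgeR adjusted p was 0.973 (unadjusted p = 0.0731). Without control 1 the log2 fold change was 0.19, so this library sets much of its size, and with each library left out in turn it lay between 0.19 and 0.40. Of all tested genes, 3.70% had FPKM values that were higher in each ultrasound library than in each control, so a single member of 8 with this pattern is not a result about the family. On TMM-scaled CPM (counts scaled to library size), where 5.69% of all tested genes were higher in this way, Cacna1b did not overlap either. Cortical excitatory neuron markers, summed over 6 of 6 genes, were at 229 to 273 FPKM in controls and 248 to 327 FPKM after ultrasound. Most of this sum was Slc17a7, at 162 to 206 FPKM in controls and 196 to 247 FPKM after ultrasound. Of the 6 genes, 3 had positive and 3 negative log2 fold changes, with a median of 0.05. The part of these markers in the Cacna1b values was not tested.

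Cacna1a encodes the P/Q-type channel, the main trigger of fast transmitter release at central synapses. Cacna1a (ENSMUSG00000034656, chromosome 8, 85065268 to 85366875, plus strand) was at 12.8, 11.7 and 9.99 FPKM over controls 1 to 3, against 13.8, 11.5 and 11.3 FPKM over ultrasound 1 to 3. The groups overlapped, with a fitted log2 fold change of 0.12 (SE 0.14, edgeR adjusted p = 0.976). The 95% interval ran from 0.875-fold to 1.36-fold. The value was 0.04 without control 3 and 0.22 without control 1.

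Cacna1e (ENSMUSG00000004110, chromosome 1, 154266477 to 154760247, minus strand) encodes the R-type channel, found on dendrites, spines and terminals. It varied most of all members, at 4.24, 5.78 and 9.04 FPKM over controls 1 to 3, against 3.84, 9.27 and 14.7 FPKM over ultrasound 1 to 3. Ultrasound 1 was the lowest and ultrasound 3 the highest of the 6 libraries, a range of 3.83-fold. Its fitted log2 fold change was 0.59 (SE 0.52, edgeR adjusted p = 0.976), with a 95% interval of 0.619-fold to 3.65-fold. It was 0.12 without ultrasound 3, 0.97 without ultrasound 1 and 0.94 without control 3. The standard deviation of Cacna1e within groups, 0.815 on the log2 scale of scaled CPM, exceeded that of 89.8% of the tested genes.

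The fitted log2 fold changes of the T-type genes were all negative with 6 libraries, but those of Cacna1h and Cacna1i changed sign with single libraries left out. Cacna1g (ENSMUSG00000020866, chromosome 11, 94299217 to 94365024, minus strand) encodes a T-type channel of thalamic relay and deep cortical neurons. It was at 11.01, 10.9 and 8.94 FPKM over controls 1 to 3, against 9.07, 7.54 and 7.65 FPKM over ultrasound 1 to 3. Control 3 lay just below ultrasound 1 in FPKM, so the groups overlapped on that scale. On TMM-scaled CPM the groups just missed each other, with 102 in control 3 and 101 in ultrasound 1, and 5.66% of all tested genes were lower without overlap on that scale (11.3% in either direction). The log2 fold change was -0.31 (SE 0.13), a 0.806-fold level with a 95% interval of 0.653-fold to 0.997-fold. Its unadjusted p of 0.0472 ranked 711th of 15740 genes, and the edgeR adjusted p was 0.973. With each library left out in turn, the value stayed between -0.39 and -0.25. Thalamic markers, summed over 8 of 8 genes, were at 15.1 to 23.6 FPKM in controls and at 14.1 to 20.3 FPKM in ultrasound libraries, with control 2 highest and ultrasound 2 lowest. Most of this sum was Slc17a6, Ramp3 and Rora, while Tcf7l2 and Lef1 fell below the filter minimum. Rora was at 0.865 FPKM in control 3 and 0.726 FPKM in ultrasound 2, against 4.98 to 6.79 FPKM in the other libraries. Deep-layer cortical markers, summed over 7 of 7 genes, were at 31.7 to 60.8 FPKM and at 49.0 to 68.6 FPKM. The part of both lists in the Cacna1g values was not tested.

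Cacna1h (ENSMUSG00000024112, chromosome 17, 25593259 to 25652757, minus strand) encodes a T-type channel that is blocked by low nickel and modulated by zinc. It was at 8.86, 4.84 and 14.1 FPKM over controls 1 to 3, against 5.85, 7.37 and 10.6 FPKM over ultrasound 1 to 3. The controls held both the lowest and the highest library, so the ultrasound values lay inside the control range. Its fitted log2 fold change was -0.20 (SE 0.41, edgeR adjusted p = 0.991), with a 95% interval of 0.439-fold to 1.73-fold. Its direction depended on control 3: without that library the value was 0.25, and without control 2 it was -0.51.

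Cacna1i (ENSMUSG00000022416, chromosome 15, 80171439 to 80282480, plus strand) encodes the slowest of the T-type channels, found mainly in brain. It was at 9.74, 12.5 and 13.1 FPKM over controls 1 to 3, against 13.8, 9.37 and 10.2 FPKM over ultrasound 1 to 3. Both the highest and the lowest library were ultrasound libraries. Its fitted log2 fold change was -0.05 (SE 0.17, edgeR adjusted p = 0.997), with a 95% interval of 0.732-fold to 1.27-fold. The sign changed with single libraries left out, from 0.04 without control 3 and 0.02 without ultrasound 2 or ultrasound 3 to -0.21 without ultrasound 1.

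Both L-type genes overlapped between groups. Cacna1c (ENSMUSG00000051331, chromosome 6, 118564201 to 119173851, minus strand), the main L-type gene of heart and brain, was at 3.83, 3.41 and 5.06 FPKM over controls 1 to 3, against 3.11, 4.44 and 5.65 FPKM over ultrasound 1 to 3. Its lowest and highest libraries were ultrasound 1 and ultrasound 3, as for Cacna1e. Its fitted log2 fold change was 0.14 (SE 0.25, edgeR adjusted p = 0.988), and it was -0.06 without ultrasound 3 and 0.36 without ultrasound 1. Cacna1d (ENSMUSG00000015968, chromosome 14, 29761896 to 30213412, minus strand), an L-type gene whose channel opens at more negative voltages, was at 4.41, 3.77 and 3.19 FPKM over controls 1 to 3, against 4.01, 3.502 and 3.42 FPKM over ultrasound 1 to 3. The ultrasound libraries lay within the control range, with a fitted log2 fold change of -0.02 (SE 0.15, edgeR adjusted p = 0.998). It was 0.12 without control 1 and 0.04 without ultrasound 3. For Cacna1d the 95% interval, 0.773-fold to 1.26-fold, leaves room for changes of about that size in either direction. The table lists Dcp1a and Chdh on the opposite strand, overlapping Cacna1d, with up to 1667 and 437 counts, and Dcp1b overlapping Cacna1c, with up to 1174 counts. The sources used here do not say whether counting used strand, so reads in such overlaps cannot be assigned with certainty.

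**Figure D2:**
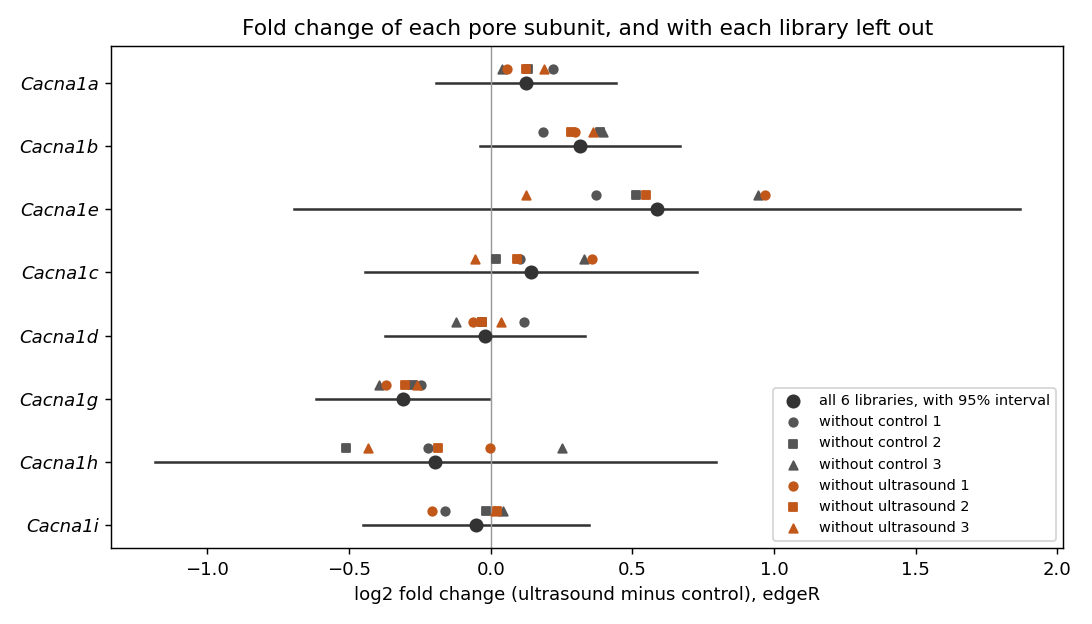
Log2 fold change of each pore subunit (ultrasound minus control, edgeR) with its 95% interval (black), and the value with each of the 6 libraries left out (small symbols above each line). Cacna1b and Cacna1g keep their sign throughout, at 0.19 to 0.40 and at -0.39 to -0.25, while Cacna1h ranges from -0.51 to 0.25.

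Some members shared a pattern over libraries that did not follow treatment. Cacna1c, Cacna1e and Cacna1h were above their own means in control 3 and ultrasound 3, and below them in control 2 and ultrasound 1, while Cacna1c and Cacna1e were above them in ultrasound 2 as well. Relative to its 6-library mean on the log2 scale of scaled counts, Cacna1e was at 0.37 in control 3 and 1.06 in ultrasound 3, against -0.90 in ultrasound 1. Cacna1h was at 0.81 in control 3 and 0.38 in ultrasound 3, against -0.78 in control 2. The summed levels of marker lists for other brain regions are given beside these values. Striatal markers were at 278, 137 and 581 FPKM over controls 1 to 3, against 349, 343 and 557 FPKM over ultrasound 1 to 3. Like Cacna1h, they were highest in control 3 and ultrasound 3 and lowest in control 2, whereas Cacna1c and Cacna1e were lowest in ultrasound 1. Choroid plexus and ependyma markers, summed over 6 of 6 genes, stood apart in ultrasound 3 at 242 FPKM. They were at 2.77 to 14.3 FPKM in the other 5 libraries, with 9.06 FPKM in control 3. Nearly all of the ultrasound 3 sum was Ttr, at 235 FPKM there and 3.88 FPKM in control 3. Clic6 and Foxj1 were instead highest in both control 3 (3.49 and 1.58 FPKM) and ultrasound 3 (3.23 and 1.88 FPKM). Folr1 and Kcne2 were at 0 in control 3. Hippocampal markers, summed over 6 of 6 genes, were at 65.0, 36.1 and 75.5 FPKM over controls 1 to 3, against 37.9, 50.7 and 74.3 FPKM over ultrasound 1 to 3. They were thus highest in control 3 and ultrasound 3, as Cacna1h was, and lowest in control 2 and ultrasound 1. Most of this sum came from 1 gene, Wfs1. It was at 46.1, 20.2 and 60.1 FPKM over controls 1 to 3, against 22.7, 35.7 and 51.9 FPKM over ultrasound 1 to 3. No other gene of this list had its highest values in both control 3 and ultrasound 3, so the sum describes Wfs1 more than the list. Of the defining genes, the striatal dopamine receptor gene Drd2 was highest in control 3 at 20.4 FPKM and lowest in control 2 at 2.55 FPKM, whereas the hippocampal Prox1 was lowest in control 3 at 0.728 FPKM and highest in ultrasound 1 at 1.80 FPKM, with no listed striatal or hippocampal marker at 0 in all 6 libraries. The same 2 libraries were also highest for summed markers of deep-layer cortical neurons, at 60.8 FPKM in control 3 and 68.6 FPKM in ultrasound 3. This held as well for astrocytes (159 and 171 FPKM), microglia (84.4 and 92.7 FPKM) and endothelium and vessel wall (43.6 and 30.7 FPKM). The pattern of sums is thus not particular to the striatal and hippocampal lists. Within the deep-layer list the genes disagreed in control 3. Most of that sum was Crym (25.7 FPKM), Syt6 (15.1 FPKM) and Bcl11b (11.5 FPKM). Fezf2 (2.07 FPKM), Etv1 (2.63 FPKM) and Ldb2 (2.89 FPKM) were each lowest in control 3. The part of all these markers in the member values was not tested.

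**Figure D3:**
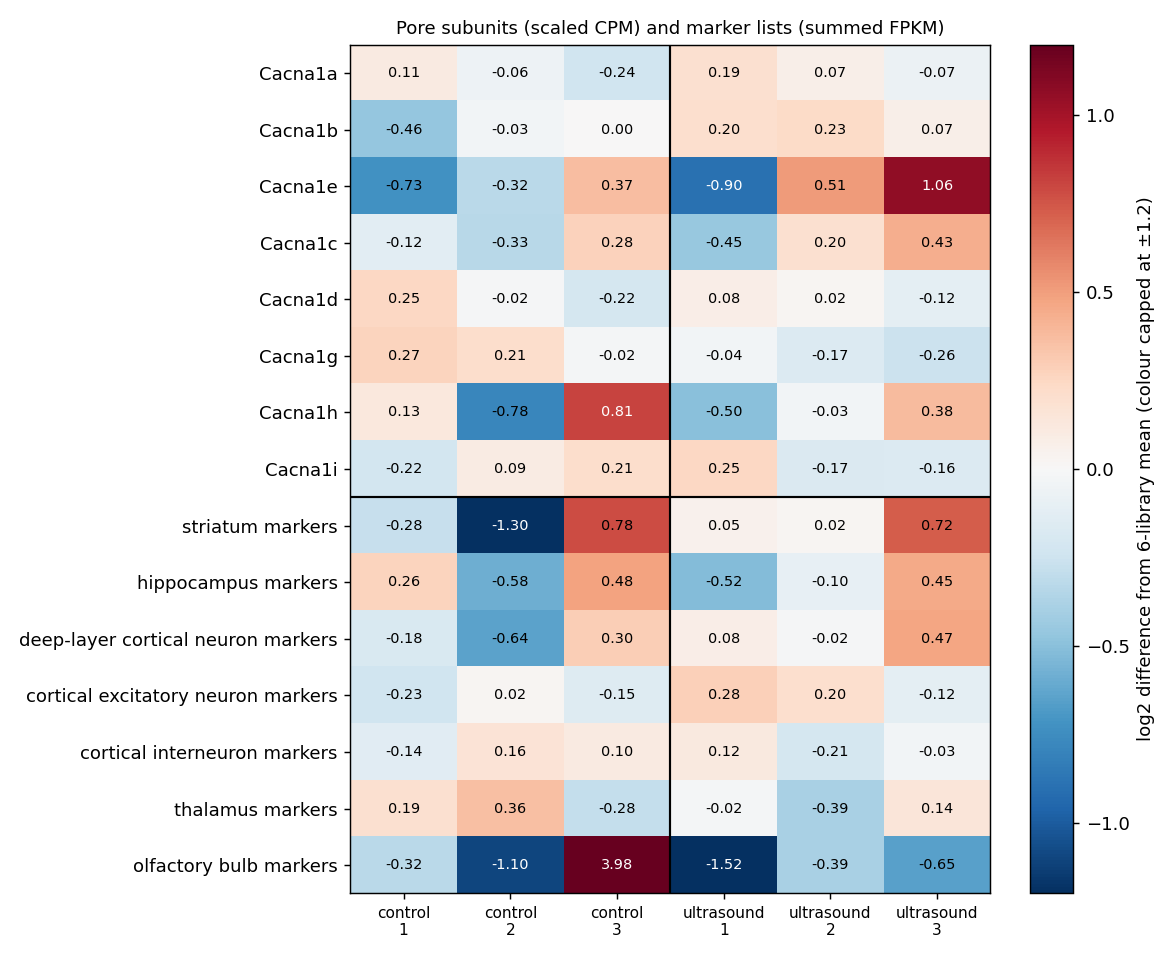
Log2 difference of each library from the 6-library mean, for the 8 pore subunits (TMM-scaled CPM, above the line) and for summed marker lists (FPKM, below the line). Cacna1h and the striatal, hippocampal and deep-layer cortical lists have their highest values in control 3 and ultrasound 3, with Cacna1h at 0.81 and 0.38. The hippocampal sum is mostly Wfs1, and the deep-layer genes Fezf2, Etv1 and Ldb2 are each lowest in control 3.

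The make-up of the pore subunit pool does not depend on library scaling, since each share is taken within a library. The Cav2 genes made up 39.5%, 44.3% and 40.0% of the summed FPKM of the 8 genes over controls 1 to 3, against 45.6%, 50.1% and 49.8% over ultrasound 1 to 3. The T-type genes made up 47.3%, 44.4% and 48.9% over controls 1 to 3, against 43.6%, 37.6% and 38.03% over ultrasound 1 to 3. Neither share overlapped between groups, with means of 41.3% ± 2.66 and 48.5% ± 2.495 for Cav2 (SD, n = 3) and of 46.9% ± 2.30 and 39.7% ± 3.33 for T-type genes. These are not 2 separate observations, since both shares are parts of 1 sum and the L-type share moved little. The Cav2 share includes Cacna1e, the most variable member, at 3.84, 9.27 and 14.7 FPKM over ultrasound 1 to 3. How often shares of other gene sets separate was not computed. Of single tested genes, 10.8% had FPKM values that did not overlap in either direction. L-type genes made up 11.9% ± 1.13 and 11.7% ± 0.833, with overlapping groups. The separation depended on the unit: as shares of summed counts, which are not scaled to length, Cav2 genes were at 43.4% to 49.0% over controls, against 48.5% to 57.6% after ultrasound, and T-type genes at 34.7% to 37.4%, against 26.1% to 35.5%, so both overlapped. The summed FPKM of all 8 genes was 66.8 ± 6.35 in controls and 68.4 ± 5.49 in ultrasound libraries.

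**Figure D4:**
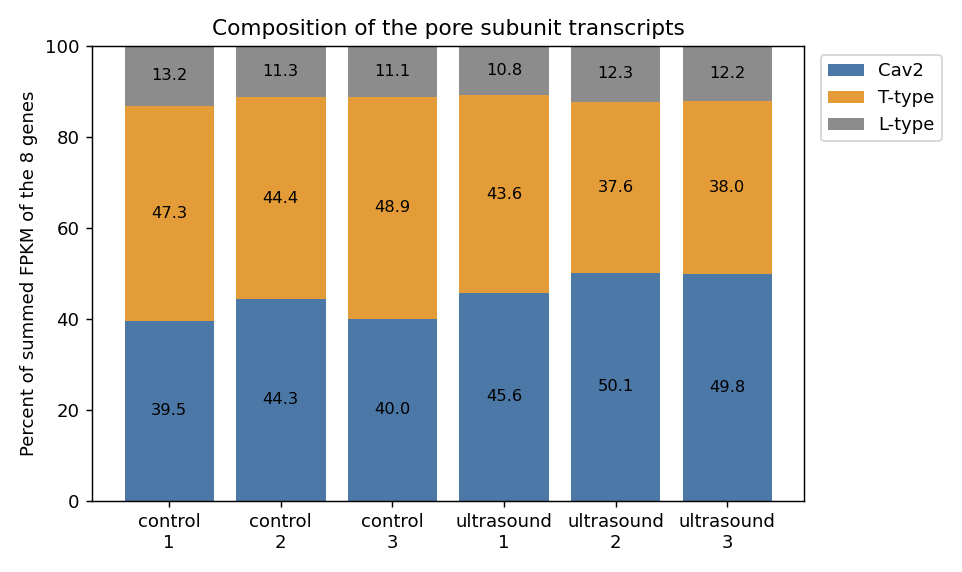
Percent of the summed FPKM of the 8 genes taken by Cav2, T-type and L-type genes in each library. Cav2 takes 39.5% to 44.3% in the controls and 45.6% to 50.1% in the ultrasound libraries.

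Ratios of members within a library are free of scaling as well, and those described here were picked after the values of all 28 pairs were seen. For 5 of the 28 pairs the ratio of FPKM values did not overlap between groups, and 3 of these 5 had Cacna1g as the denominator. Among all pairs of the 15350 tested genes with FPKM above 0 in every library, 10.8% had ratios that did not overlap. Cacna1a over Cacna1g was 1.16, 1.08 and 1.12 over controls 1 to 3, against 1.52, 1.53 and 1.48 over ultrasound 1 to 3. The ultrasound libraries lay close together, above all controls. Cacna1b over Cacna1g was 0.699, 0.983 and 1.19 over controls 1 to 3, against 1.37, 1.53 and 1.46 over ultrasound 1 to 3. The remaining pairs were Cacna1d over Cacna1g, Cacna1a over Cacna1d and Cacna1b over Cacna1i. Pairs share genes and are not independent, and no test was made on ratios picked in this way.

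The auxiliary subunits, which carry the pore to the membrane and tune its gating, showed no change that passed. Of the 4 beta subunit genes, intracellular partners of the L-type and Cav2 pores, 4 were tested, 0 passed in edgeR at either an adjusted or an unadjusted p under 0.05, and 3 had positive fold changes (median 0.13, but 0.079 without control 2 and 0.051 without ultrasound 1). Cacnb1 had the smallest p, at 27.2, 30.8 and 29.6 FPKM over controls 1 to 3, against 33.97, 30.5 and 31.7 FPKM over ultrasound 1 to 3, a log2 fold change of 0.17 (SE 0.11, edgeR adjusted p = 0.973). Cacnb4 had 0.27 (SE 0.30) and was -0.10 without ultrasound 1, where it was highest at 42.4 FPKM. Of the 4 alpha2delta genes, extracellular subunits that raise surface expression and bind gabapentin in the case of Cacna2d1 and Cacna2d2, 3 were tested and 0 passed (median -0.01, and -0.36 to 0.20 over the alternatives). Cacna2d1 was at 17.5 FPKM in control 1 and at 4.61 to 7.97 FPKM in the other 5 libraries, with a log2 fold change of -0.47 (SE 0.52) that became 0.38 without control 1. Cacna2d3 had 0.06 (SE 0.20), and it was -0.02 without control 3, -0.05 without ultrasound 1 and -0.02 without ultrasound 3. Of the 8 gamma genes, several of which serve as AMPA receptor partners, 6 were tested and 0 passed (median 0.23, with 4 of 6 higher). Without control 3 all 6 were higher, while the median was 0.078 without control 2, 0.13 without ultrasound 1 and 0.14 without ultrasound 2. Cacng3 had 0.22 (SE 0.13) and Cacng8 0.24 (SE 0.16). Cacng5 was at 17.4 FPKM in control 3, the library rich in olfactory bulb markers, and at 1.25 to 3.75 FPKM in the other 5.

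Most lists of genes that work beside the channels had more positive than negative fold changes, and no gene of them passed. Across all tested genes 7680 of 15740 were higher, with a median of -0.01. Genes of a list were measured in the same 6 libraries, so their directions are not independent. Among calcium pumps and exchangers, which remove calcium from the cytosol, 11 of 12 were higher with a median of 0.33, and 10 to 12 were higher over the 16 alternatives. Slc8a1, the sodium-calcium exchanger, was at 6.93, 6.78 and 6.07 FPKM over controls 1 to 3, against 10.7, 8.14 and 8.37 FPKM over ultrasound 1 to 3, with a fitted log2 fold change of 0.49 (SE 0.13, edgeR adjusted p = 0.973, unadjusted p = 0.00577). In FPKM each ultrasound library lay above each control, as for 3.70% of all tested genes, and Slc8a1 was named for the smallest p of its list. Atp2b1, a plasma membrane calcium pump, had a log2 fold change of 0.44 (SE 0.16). At an unadjusted p under 0.05, 2 of the 12 were higher and 0 lower, where 386 of all 15740 tested genes were higher and 365 lower (4.77% in all).

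Presynaptic partners of Cav2 channels were higher in 12 of 14 cases (median 0.21, and 11 to 13 higher over the alternatives). The median was 0.13 without control 3, 0.35 without control 2 and 0.40 without control 1. Pclo, a scaffold of the active zone, had a log2 fold change of 0.45 (SE 0.15, edgeR adjusted p = 0.973). At an unadjusted p under 0.05, 4 of the 14 were higher and 1 lower, where 386 of all 15740 tested genes were higher and 365 lower (4.77% in all), and the lower one was Tspoap1, a binding protein that links RIM to calcium channels (log2 fold change -0.44, SE 0.18).

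Potassium channels that act with calcium channels, through calcium-activated gating or as A-type channels with their KChIP subunits, were higher for 10 of the 10 genes (median 0.19). The count was 7 to 10 over the alternatives, 7 without ultrasound 3 (median 0.34) and 9 with library totals in place of TMM scaling. Kcnd3, an A-type channel, had the smallest p of this list. It was at 1.09, 0.867 and 1.06 FPKM over controls 1 to 3, against 1.99, 8.80 and 1.505 FPKM over ultrasound 1 to 3. Its log2 fold change of 2.11 (SE 0.74) was 0.79 without ultrasound 2, which was also the library richest in 18S. Kcnip3, the calcium sensor also known as DREAM, had 0.27 (SE 0.15).

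Regulators of L-type channels were higher in 8 of 12 tested cases (median 0.18, but 0.036 without ultrasound 3, 0.31 without control 1 and 0.29 without ultrasound 2, with 7 to 10 higher over the alternatives), and the smallest p belonged to the anchoring protein Akap6 at 0.31 (SE 0.13) and to Ahnak, a large beta subunit binding protein, at 0.48 (SE 0.21). Calcium release and store-operated channel genes were higher in 7 of 10 cases (median 0.13), but in 5 of 10 with library totals in place of TMM scaling and in 5 of 10 without ultrasound 2 (median 0.022). The median was 0.039 without control 2 and 0.20 without control 3. Of these, Stim2, a calcium sensor of the endoplasmic reticulum, had 0.51 (SE 0.19) and the inositol trisphosphate receptor gene Itpr1 had 0.20 (SE 0.16). Transcription targets of calcium entry pointed the other way, with 7 of 10 lower and a median of -0.36. Within them, Vgf, a secreted neuropeptide precursor, was at 41.4, 56.7 and 40.8 FPKM over controls 1 to 3, against 75.3, 56.6 and 76.0 FPKM over ultrasound 1 to 3 (log2 fold change 0.62, SE 0.16, edgeR adjusted p = 0.973). The early gene Nr4a1 had -0.81 (SE 0.37). That list's median ranged from -0.65 without control 3 to 0.16 without control 2, so its direction was not stable.

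**Figure D5:**
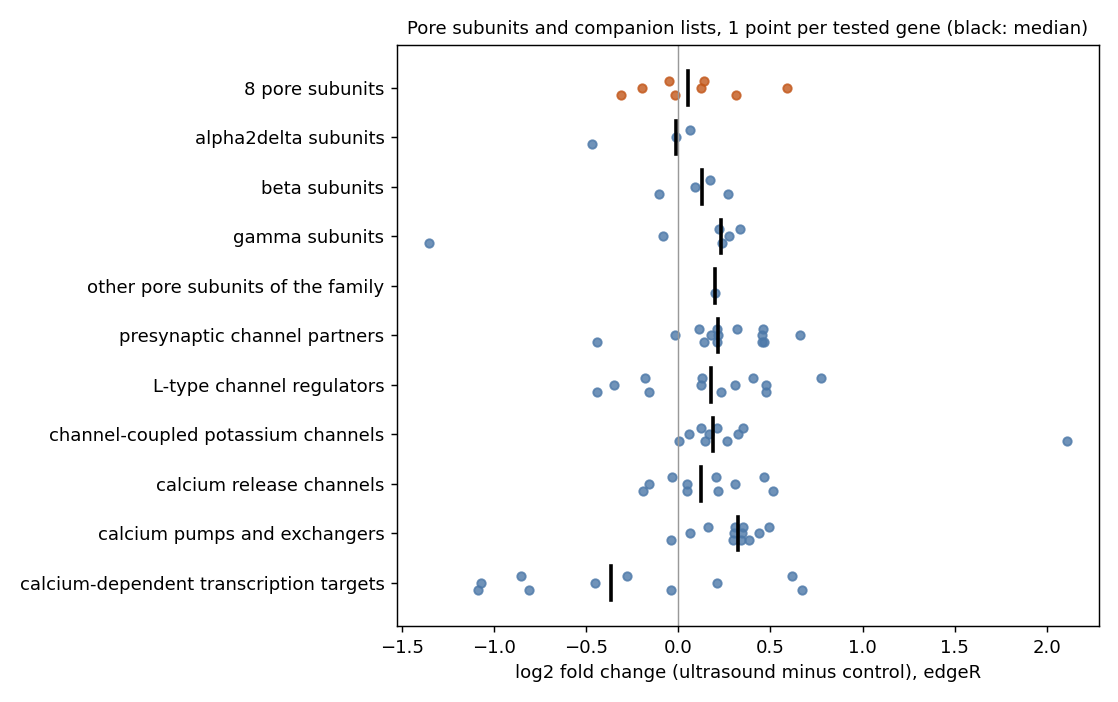
Log2 fold change (ultrasound minus control, edgeR) of each tested gene of the pore subunit set (orange) and of 10 companion lists (blue), with the list median in black. The pore subunits centre at 0.05, calcium pumps and exchangers at 0.33 and calcium-dependent transcription targets at -0.36.

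The genes whose pattern over the 6 libraries was most like that of each member, by Pearson correlation of log2 TMM-scaled CPM, were the following. For Cacna1a they were Exoc4 (r = 0.99) and Sugt1 (r = 0.98), for Cacna1b Cdk5r1 and Cry1 (both r = 0.99), for Cacna1e Crispld2 (r = 0.99) and Pwwp2a (r = 0.98), and for Cacna1g Sec24c and Exoc3l (both r = 0.99). For the L-type gene Cacna1c they were Dmac2 (r = 0.997) and Exosc5 (r = 0.99), and for Cacna1d Qdpr and Hace1 (both r = 0.99). For Cacna1h they were Tmie (r = 0.998) and Fras1 (r = 0.99), and for Cacna1i Irf2bp1 (r = 0.99) and Snord72 (r = 0.98). These correlations were picked as the highest over the tested genes, all points share the same 6 libraries and their scaling, and they describe these libraries only.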

How the data were processed

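Polyadenylated RNA of motor cortex was sequenced in 6 libraries, 3 per group, per the labels' protocols, from strand-marked cDNA read in pairs. For 33182 genes the table deposited by the authors gives raw counts beside FPKM; FPKM is scaled to transcript length and library depth, per the file headers. Per the submitters' processing notes, the tools were StringTie 1.3.4d, HISAT2 2.0.4, cutadapt 1.9, edgeR and DESeq2, without stated roles, and the build was mm10. Positions are as the table lists them: no start or end of the 8 members equals that of RefSeq on GRCm38.p6, so the build of these positions is uncertain. A further 12 value columns, of other libraries, stayed out. No pair of libraries within a group was identical.

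The 15740 genes whose FPKM averaged 0.5 or more were tested on the deposited counts by the quasi-likelihood fit of edgeR (version 4.0.16, R 4.3.3, TMM scaling, robust, no covariate). P-values were adjusted by Benjamini-Hochberg over all tested genes, with a threshold of 0.05, and log2 fold changes are ultrasound minus control. The fit was tested on simulated counts. Alternatives were DESeq2 1.42.0, RLE scaling, library totals, 2 other filters, limma 3.58.1 on log2(FPKM + 0.5) and log2(FPKM + 0.1), a replicate block, 18S removed and libraries left out. Members and lists were chosen with earlier results of these data known. Companion lists are described by counts and medians, naming the 2 genes of each list with the smallest p; others were named after their values were seen. A gene that this rule names is not reported here. Of each member, the 2 most correlated genes are named, skipping predicted genes and pseudogenes.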

Additional observations from a re-analysis of the deposited data

How the results depend on the processing

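Of the 8 pore subunits, 0 passed under each of the 16 alternatives, and the smallest adjusted p of any member was 0.799, with no filter on low values. The count of all genes past the threshold was 1 in edgeR, 29 in DESeq2, 2 with no filter, 0 in limma with a pseudocount of 0.5 and 0 with 0.1, 8 without control 3 and ultrasound 2 together, and 1 to 4 with single libraries left out. Cacna1a, Cacna1b, Cacna1e and Cacna1g kept their sign throughout. With single libraries left out, the log2 fold change ranged from -0.056 to 0.36 for Cacna1c, -0.12 to 0.12 for Cacna1d, -0.51 to 0.25 for Cacna1h and -0.21 to 0.043 for Cacna1i. It ranged from -0.79 to 0.38 for Cacna2d1, -0.051 to 0.24 for Cacna2d3 and -0.10 to 0.47 for Cacnb4. Without control 3 and ultrasound 2 together, Cacna1h was at 0.25 and Cacna1i at 0.11. The cause of these reversals was not tested. Family shares moved by less than 1 SD under the alternatives run for them, with Cav2 6.35 to 8.76 percentage points higher, T-type -9.04 to -6.06 and L-type -0.476 to 0.542 with single libraries left out.

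The same replicate numbers did not deviate together over all tested genes (correlations of -0.038, 0.002 and 0.068). This gave no sign of pairing. It cannot settle whether libraries of the same number share a batch, and the labels do not state a pairing. With the replicate block, 0 members passed, 1 of all genes passed, and Cacna1b and Cacna1g were at 0.33 and -0.31. The level order rests on transcript length: with GENCODE M21 lengths, an alternative chosen after seeing the data, 4 of the 8 members kept their rank.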
